A study of Mus musculus and other sequences with 2 samples.

Results

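The miR-26, miR-29 and miR-101 families were represented by 7 mouse assays among the 750 miRNA assays of the array. They were taken by name from the deposited Ct values, as the mouse assays mmu-miR-26a, mmu-miR-26b, mmu-miR-29a, mmu-miR-29b, mmu-miR-29c, mmu-miR-101 and mmu-miR-101b, without those for the minor arms. The array profiled 1 microdroplet of media conditioned with CD1 mouse embryos and 1 blank microdroplet. For the conditioned media, embryos of superovulated, 3-week-old CD1 females mated with CD1 males were grown to 99 h post-hCG. Then 25 of them, which the methods call compacted or cavitating morulae and the labels blastocysts, were moved to a separate droplet of 8 μL until 116 h. The study states that all had become expanded blastocysts by then. The blank media held no blastocysts and was cultured for the same 17 h. Both were KSOM free of BSA with 0.1% polyvinylacetate, which the methods give as polyvinyl alcohol, at 37 °C in 5% O2 and 5% CO2. From each, 6 μL was lysed without RNA extraction. The embryos were pooled and each medium was profiled in 1 replicate, so that no test between the media was possible.

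These families are named together because their best-known target mRNAs encode enzymes that modify chromatin. The families miR-26 and miR-101 are known to repress Ezh2, the methyltransferase of Polycomb repressive complex 2 that places the repressive mark on histone H3. The family miR-29 is known to repress Dnmt3a and Dnmt3b, the de novo DNA methyltransferases, as well as Tet and Tdg mRNAs, whose products take part in removal of DNA methylation, and many mRNAs of collagens. In the uterus, miR-101 is also known to repress Ptgs2, the cyclooxygenase needed for implantation. A miRNA pairs with its targets mainly through its seed, bases 2 to 8 from its 5′ end, so that members sharing a seed share most of their predicted targets.

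The mature sequences of the 7 miRNAs show which members an assay has to tell apart. They are given from RefSeq on GRCm38.p6, 5′ to 3′, with the seed in capitals; all 7 names were matched, the unlettered miR-101 as miR-101a-3p, which is its later name.
miR-26a: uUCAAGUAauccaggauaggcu
miR-26b: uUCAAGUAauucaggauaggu
miR-29a: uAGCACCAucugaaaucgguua
miR-29b: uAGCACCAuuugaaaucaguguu
miR-29c: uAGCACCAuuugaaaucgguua
miR-101: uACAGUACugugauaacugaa
miR-101b: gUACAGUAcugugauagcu

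Both miR-26 members carried the seed UCAAGUA, which no other mature mouse miRNA in RefSeq's entries carried. Counted from 1 at the 5′ end of miR-26a, miR-26b differed from it by C11U and C21U and was 1 base shorter. The 3 miR-29 members shared the seed AGCACCA, also found in no other mature miRNA of these entries. From miR-29a, miR-29c differed by C10U alone, and miR-29b by C10U, G18A, U21G and A22U. The 2 miR-101 sequences matched at 17 of 18 bases when the entry of miR-101b was read from its second base, with A16G as the only substitution counted along miR-101. As the entry of miR-101b starts 1 base earlier, its bases 2 to 8 (UACAGUA) were not those of miR-101 (ACAGUAC). Which of these 5′ ends the array assays were designed on is not given in the sources used here.

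In the genome, the 7 mature miRNAs came from 9 hairpins. The mature miR-26a is encoded at chr9:119031811-119031832 and chr10:126995543-126995564, within the spans of Ctdspl and Ctdsp2, and miR-26b at chr1:74394324-74394344 within that of Ctdsp1. These 3 genes encode small phosphatases of the C-terminal domain of RNA polymerase II. The hairpins of miR-29a and miR-29b-1 were neighbours on chromosome 6, with 275 bases between them and no enclosing gene in the annotation. The hairpins of miR-29b-2 and miR-29c were neighbours on chromosome 1, with 426 bases between them, within the long non-coding RNA gene A330023F24Rik. Mature miR-101 came from chr4:101346957-101346977 within the long non-coding RNA gene E130102H24Rik, and miR-101b from chr19:29135338-29135356 within Rcl1. An assay of mature miR-26a or miR-29b cannot tell its 2 hairpins apart. Below are the 2 hairpins that give the same miR-29b, and the 2 hairpins of the miR-101 members, which had the widest gap within a family in conditioned media; the capitals mark the mature miRNA.
Mir29b-1, chr6:31063023-31063093, minus strand: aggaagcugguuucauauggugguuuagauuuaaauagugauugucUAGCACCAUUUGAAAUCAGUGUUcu
Mir29b-2, chr1:195037040-195037120, plus strand: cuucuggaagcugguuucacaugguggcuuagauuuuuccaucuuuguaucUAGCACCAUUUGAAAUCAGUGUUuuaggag
Mir101a, chr4:101346945-101347027, minus strand: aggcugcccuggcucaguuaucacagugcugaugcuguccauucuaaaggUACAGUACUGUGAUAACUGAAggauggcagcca
Mir101b, chr19:29135279-29135375, plus strand: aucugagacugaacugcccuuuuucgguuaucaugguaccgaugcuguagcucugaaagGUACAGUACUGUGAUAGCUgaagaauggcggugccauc

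Each value below is the Ct of 1 well, the cycle at which its fluorescence crossed a threshold. Less template is seen as a later Ct, and each cycle is about a doubling. An assay counted as detected where its Ct was below 35, and as not detected where it was later or undetermined. The small nuclear RNA U6, spotted in 4 wells of each of the cards A and B, gave the error between wells. On card A, which held 6 of the 7 members, its Ct was 20.90 ± 0.68 (SD, n = 4 wells) with embryos and 24.98 ± 3.22 without. The larger SD rested on 1 blank well at 20.20 beside 3 wells between 26.26 and 27.14, without which it was 0.49. The SD with embryos rested likewise on 1 well, at 19.89 beside 3 wells between 21.14 and 21.31, without which it was 0.09. On card B, which held miR-101b, the U6 wells gave 19.96 ± 0.83 with embryos and 27.04 ± 0.23 without. These SD values describe wells of 1 droplet, not embryos or cultures. In conditioned media the U6 wells also had an earlier Ct than every member, and the spread between wells at a later Ct was not measured. Wells with a Ct below 20 were found for 87 miRNA assays in conditioned media and 84 in blank media.

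All 7 assays had a Ct below 35 in conditioned media, from 24.24 to 33.82 with a median of 29.51, compared with 37.3% of all 750 miRNA assays and a median of 25.46 over the 280 that were detected. That share and median include the 87 assays with a Ct below 20, where no member lay in conditioned media. In blank media, 4 of the 7 were detected, namely miR-26b and the 3 miR-29 members, compared with 29.1% of all assays. These 4 were thus detected in both media, as were 23.5% of all assays. The other 3, miR-26a, miR-101 and miR-101b, were undetermined in blank media and so were detected in conditioned media only, a class that held 13.9% of all assays. No member was detected in blank media only. By Ct alone, the miR-101 members were thus detected with embryos only, the miR-29 members in both media, and the miR-26 members differed from each other. The study also filtered on signal height, and so counted fewer miRNAs as detected in each medium than are counted here by Ct alone. Its printed list is only a part of the miRNAs it found exclusive to conditioned media, those with little or no signal in the blank. That list holds miR-26a and miR-101a but not miR-101b, whose absence does not show that the study found it in blank media.

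**Figure D1:**
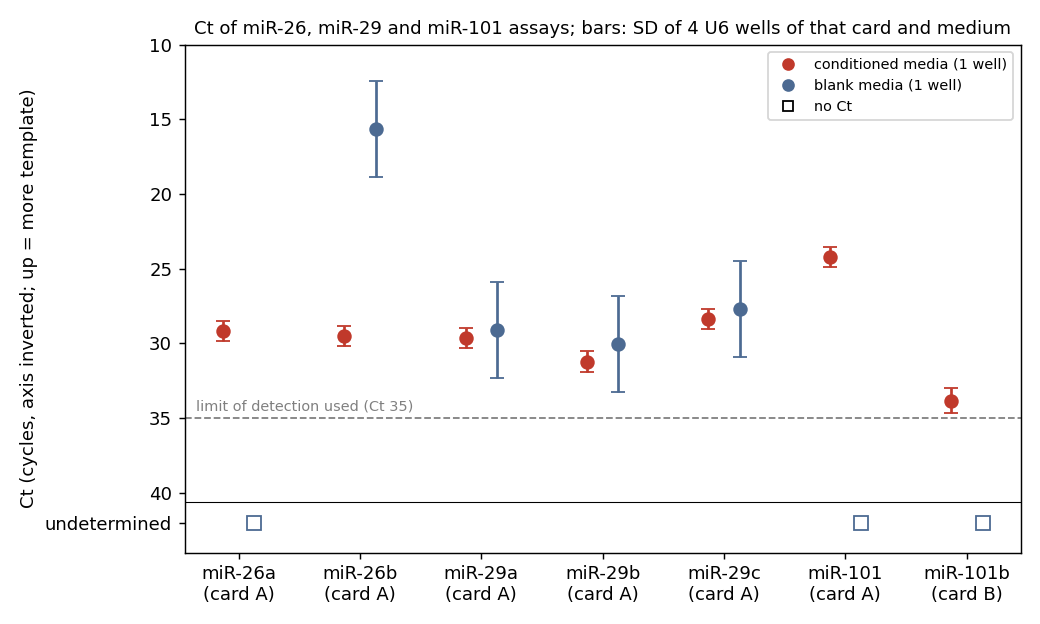
Ct in cycles (inverted axis) of the 7 assays in conditioned media (red) and blank media (blue), 1 well each; bars give the SD of the 4 U6 wells of that card and medium, and open squares wells without a Ct. The miR-29 values of both media lie within 1.2 cycles of each other, miR-26b is earliest in blank media at 15.64, and miR-26a, miR-101 and miR-101b have a Ct in conditioned media only.

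The assay of miR-101, the unlettered name that stands for miR-101a, gave a Ct of 24.24 with embryos and none in the blank droplet. This was the earliest Ct of the 7 members in conditioned media, 4.13 cycles before the next, miR-29c. Among the 149 assays detected on card A in conditioned media it ranked 54, with rank 1 the lowest Ct. Among the 104 assays detected in conditioned media only, it ranked 30, or 8 of 82 when assays with a Ct below 20 were left out. That cut also took out the card A assays of miR-292-3p, at 19.62, and miR-295, at 19.67. The study lists both as exclusive to conditioned media. The gap of 4.13 cycles was larger than the SD expected of a difference between 2 wells, 0.96, taken from the SD of the conditioned U6 wells of that card. It lay within the differences seen between 2 assays of the same name, which in conditioned media ran from 1.25 to 7.42 cycles with a median of 4.07 over 5 pairs with both Ct values between 20 and 35. Most of these pairs lie across cards, while miR-101 and miR-29c were both on card A. Only miR-136#, with 26.44 and 29.30 on card B, had both assays on 1 card. Since assays differ in efficiency, these ranks order wells and not amounts.

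The assay of miR-101b gave a Ct of 33.82 with embryos and, like miR-101, none in the blank droplet. It was the latest of the 7 members and ranked 124 of the 131 assays detected on card B. Its Ct was 9.58 cycles later than that of miR-101, a gap wider than the 7.42 cycles that separated the most distant of the 5 same-name pairs. Those pairs leave out names with a Ct past 35 or none in 1 well, so that 7.42 is not an upper bound. Among the names left out, miR-200b gave 36.41 on card A and 27.02 on card B, and miR-214 gave 35.89 and 30.62. The members were on different cards, each with its own reverse transcription and pre-amplification, and the mean Ct of U6 in conditioned media was 0.94 cycles later on card A than on card B. With a limit of 32 in place of 35, miR-101b was not detected.

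The assay of miR-26a gave a Ct of 29.17 with embryos and none in the blank droplet. That of miR-26b gave a Ct of 29.51 with embryos and 15.64 in the blank droplet. The conditioned wells of the 2 members, whose sequences differ at 2 of 21 compared bases, were thus 0.34 cycles apart. This was less than the 0.96 cycles expected of 2 wells with all U6 wells kept. It was larger than the SD of the 3 conditioned U6 wells left without the outlying one, 0.09. That SD is for single wells, and the SD of a difference between 2 wells would be larger. Of 14 other pairs of mouse assays that share a number but not a letter on 1 card, with both Ct values from 20 to 35 in conditioned media, 1 pair was closer, miR-30b and miR-30c at 0.25 cycles. The median of these 14 pairs was 3.46 cycles, and they share members, so that they are not independent.

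In the blank droplet the miR-26 members differed, with no Ct for miR-26a and the earliest Ct of the 4 detected members for miR-26b. The Ct of miR-26b was 13.87 cycles later in conditioned than in blank media. Of the 176 assays detected in both media, 9 had a larger shift in that direction. A shift of more than 5 cycles was found for 1 of the 7 members, compared with 2.67% of all assays and 4.01% of those on card A, and a shift of more than 5 cycles the other way for none of the 7, compared with 2.53% of all assays. The blank well of miR-26b was 1 of 43 on card A with a Ct below 20. Of these 43 assays, 23 had a Ct below 20 in conditioned media too, 11 had a Ct from 20 to 35 there, miR-26b among them, and 9 were not detected there. The part that such early wells have in the value of miR-26b was not tested. If a Ct below 20 is taken as not detected, miR-26b joins miR-26a as detected in conditioned media only.

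**Figure D2:**
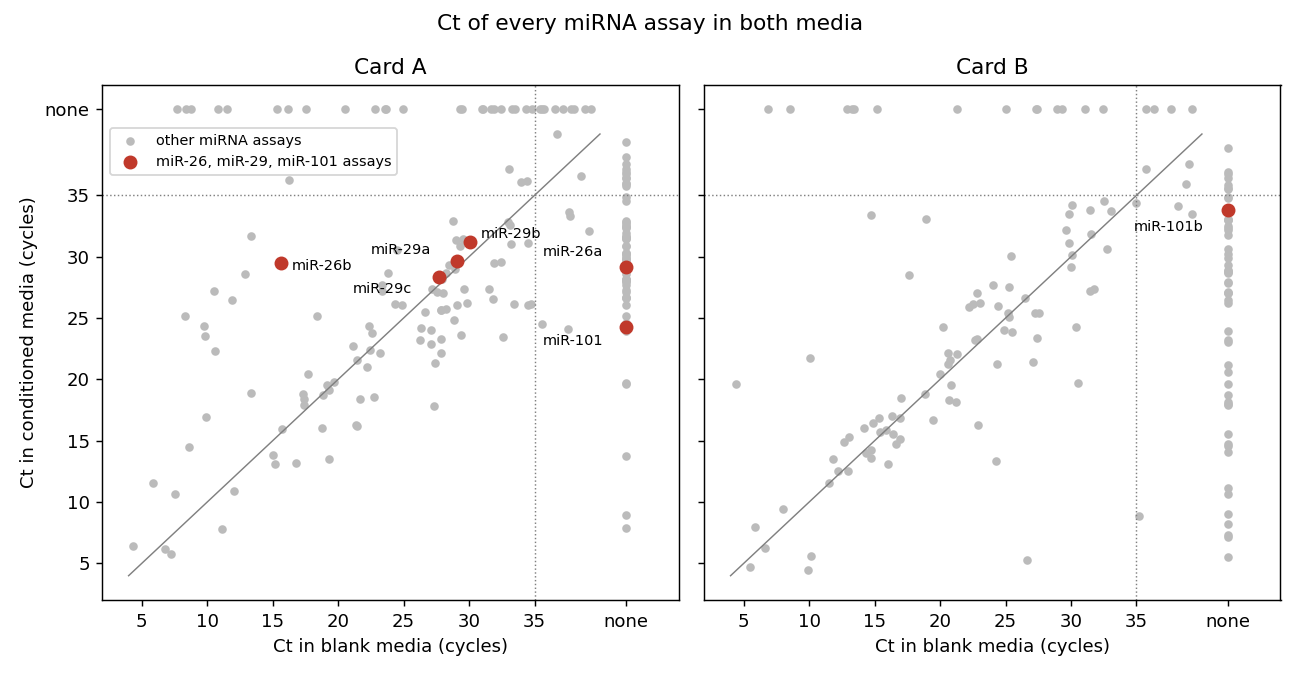
Ct in conditioned media against Ct in blank media for every miRNA assay with a Ct in at least 1 medium, on cards A and B, with "none" for an undetermined Ct, dotted lines at the limit of 35 and a diagonal of equal Ct. The miR-29 members lie along the diagonal, miR-26b lies 13.87 cycles above it, and miR-26a, miR-101 and miR-101b lie in the column without a blank Ct.

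The 3 miR-29 members were detected in both media at nearly equal Ct. The assay of miR-29a gave a Ct of 29.61 with embryos and 29.10 in the blank droplet. That of miR-29b gave 31.21 and 30.04, and that of miR-29c 28.37 and 27.71. All 3 were slightly later in conditioned media, by 0.51 cycles for miR-29a, 1.17 for miR-29b and 0.66 for miR-29c. The SD of a difference between media, combined from the U6 wells of both media on card A, was 3.29 cycles, larger than each of these differences. When the outlying blank U6 well was left out, which was decided with the data in view, it was 0.83, which is larger than the differences of miR-29a and miR-29c and smaller than that of miR-29b. With the outlying conditioned well left out as well, also decided with the data in view, it was 0.50, smaller than each of the 3 differences. With all U6 wells kept, none of the 3 differences exceeded the SD of the U6 difference.

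Among all 94 assays detected in both media on card A, the median difference (conditioned minus blank) was -0.12 cycles, and 29 differed by no more than 1.5 cycles, the 3 miR-29 members among them. The order of the 3 members was the same in both media, with miR-29c earliest, miR-29a next and miR-29b latest. They spanned 2.84 cycles in conditioned media and 2.33 cycles in blank media. Their neighbours in this order were 1.24 and 1.60 cycles apart with embryos and 1.39 and 0.94 without. The blank gaps were smaller than the SD of the 4 blank U6 wells of that card, 3.22, and larger than that of the 3 wells without the outlying one, 0.49. Both are SD values of single wells, and that of a difference between 2 wells would be larger.

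For U6 itself, the mean difference (conditioned minus blank) was -4.08 cycles for card A and -7.07 for card B. Taken relative to the mean of U6 on card A, the 3 miR-29 members were later in conditioned media by 4.59 cycles for miR-29a, 5.25 for miR-29b and 4.74 for miR-29c, and miR-26b by 17.95. On that scale, 1 of the 3 miR-29 members was more than 5 cycles later, miR-29b, beside 35.1% of the 94 assays detected in both media on card A. Relative to the median of the U6 wells all 3 were past 5 cycles, beside 48.9% of the same 94 assays, as they were relative to U6 without its outlying blank well, beside 55.3%. This reference shifts every assay of the card alike. All of these references, and the card median, were negative on card A. Subtracting them could only raise the differences of the miR-29 members, so that their unchanged direction is no sign of stability.

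**Figure D3:**
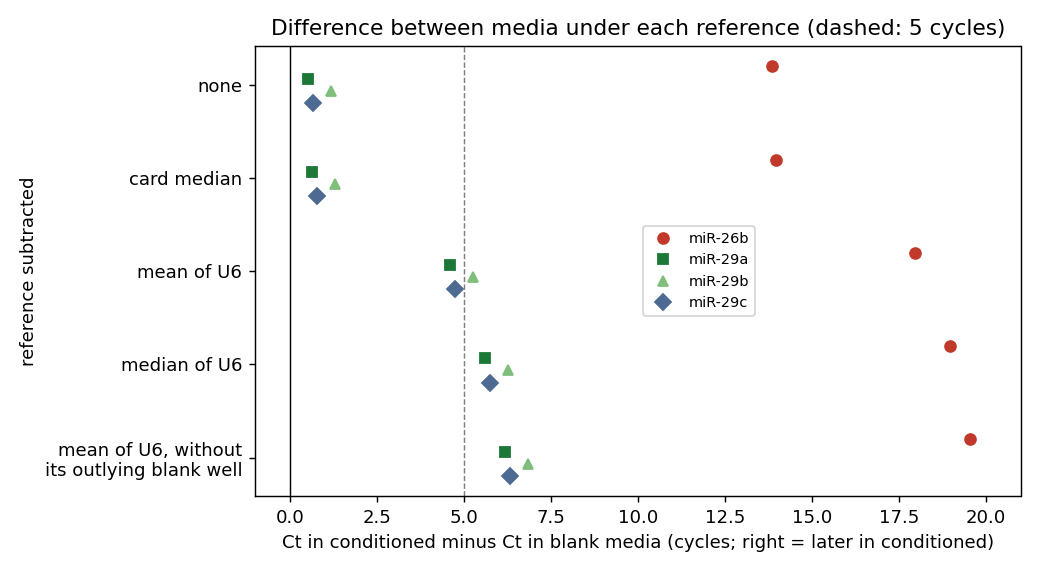
Ct in conditioned media minus Ct in blank media, in cycles, for the 4 members detected in both media, under each reference subtracted (rows); the dashed line marks 5 cycles. The miR-29 members lie between 0.51 and 1.29 cycles with no reference or the card median and between 4.59 and 6.85 with U6, and miR-26b lies between 13.87 and 19.55 throughout.

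In order of Ct in conditioned media, the members were miR-101, miR-29c, miR-26a, miR-26b, miR-29a, miR-29b and miR-101b. From miR-29c to miR-29a, neighbours were 0.80, 0.34 and 0.10 cycles apart, each less than the 0.96 cycles expected of 2 wells with all U6 wells kept. The SD of the 3 conditioned U6 wells without the outlying one was 0.09, for single wells and not for a difference between 2. The SD of a difference would be larger. The gaps of 0.80 and 0.34 were past 0.09, and that of 0.10 was close to it. The steps to miR-29b, of 1.60 cycles, and on to miR-101b, of 2.61 cycles and across cards, were larger.

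For each member, the 2 assays of the same card nearest in both Ct values were found, over 2 media and so over 2 values at most. Next to miR-101 were miR-19b, a member of the miR-17 cluster, at a distance of 0.33 cycles, and miR-293, of the embryonic miR-290 cluster, at 0.34. Next to miR-26a were miR-15b at 0.09 and miR-182 at 0.26. Next to miR-101b were miR-1935 at 0.75 and miR-291-3p at 0.80. All of these were without a Ct in blank media, as the choice required. Of the members detected in both media, miR-29c was nearest to miR-30a-5p at 0.31 and miR-142-3p at 0.60, miR-29a to miR-127 at 0.68 and miR-190 at 0.70, and miR-29b to miR-223 at 0.55 and miR-431 at 0.78. The nearest assays to miR-26b were miR-685 at 2.87 cycles and miR-145 at 3.19, so that it had no close neighbour on the card.

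The opposite arms of these hairpins and the rat-named assays gave 7 further assays, each of them on card B. There was no Ct in either medium for 6 of them, namely miR-26b#, miR-29a#, miR-29b-2#, miR-101a#, rno-miR-29c# and rno-miR-29b-1#, where # marks the minor arm. The remaining assay, miR-29b#, gave a Ct of 20.45 with embryos and 19.97 in the blank droplet, so that it was 0.48 cycles later with embryos, less than the SD of U6 differences on card B of 0.86. Its Ct was 10.8 cycles earlier than that of the major arm miR-29b in conditioned media and 10.1 cycles earlier in blank media, in wells of different cards. No sequence could be matched to this assay, which is named as the minor arm without a hairpin number, its blank well was among those with a Ct below 20, and these wells do not order the amounts of the arms.

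A list of 20 other miRNAs known to repress chromatin regulators in other cells was set beside these families. It had 24 mouse assays under 19 of the names, none being named miR-449a. An assay named miR-449 without a letter, which may be the same miRNA under its earlier name, was not counted; it gave a Ct of 24.87 with embryos and 28.87 in the blank droplet. In conditioned media 12 of the 24 were detected, 50.0%, with a median Ct of 26.22, and in blank media 6, or 25.0%, compared with 37.3% and 29.1% of all assays. The 6 detected in conditioned media only were 25.0% of the list, compared with 13.9% of all assays. The 4 of lowest Ct in conditioned media were miR-34a, miR-143, miR-206 and miR-200c. The assay of miR-34a, a repressor of Sirt1, gave a Ct of 18.44 with embryos and 17.38 in the blank droplet, and that of the muscle miRNA miR-206 22.16 and 20.59. One assay of miR-143, a repressor of Dnmt3a, gave 21.45 and 27.08 in that order, while the other assay of the name, on card A, gave 28.87 with embryos and no Ct in the blank droplet, so that the name stands in both classes. The assay of miR-200c on card B, a repressor of Bmi1, gave 23.92 with embryos and no Ct in the blank droplet.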

How the data were processed

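Media conditioned by 25 embryos for 17 h and blank media were each measured in 1 sample on TaqMan rodent array cards A and B after reverse transcription and pre-amplification for 12 cycles. Values deposited by the authors are Ct values as exported from the instrument software, not normalized; the Ct scale is log2 and inverted, and wells with no Ct read undetermined. The threshold and baseline behind them are not given in the sources consulted. Signal height (ΔRn), a second filter of the study, was not analysed here. A deposited table of fold changes between the media, calculated by the authors, was not used. Each assay was taken as 1 sequence, a Ct below 35 as detected, and 18 control wells were left out of counts. With 1 sample per medium, no test was run, and the SD of the 4 U6 wells per card gave the error between wells. Because only single wells were read, no interval could be given.

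The members and lists were chosen with earlier results of these data known. Named were all assays of the families, the 4 listed chromatin-related assays of lowest Ct, and the 2 nearest assays of each member. Pairs of assays sharing a number or a name were counted with a Ct from 20 to 35. Sequences, positions and enclosing genes are RefSeq's on GRCm38.p6; the deposited values name no genome build. Alternatives were Ct limits of 32 and 38, any determined Ct, wells below 15 or 20 taken as not detected, and differences relative to U6 or the card median. Leaving out the outlying U6 wells was added after seeing the data. Counting was tested on simulated data. The software was Python 3.11.15, pandas 2.3.3, numpy 2.4.6 and matplotlib 3.10.9.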

Additional observations from a re-analysis of the deposited data

How the results depend on the processing

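Relative to the mean of U6, the Ct in conditioned minus blank media was 17.95 cycles for miR-26b, 4.59 for miR-29a, 5.25 for miR-29b and 4.74 for miR-29c. Relative to the median of U6 it was 18.97, 5.61, 6.27 and 5.75 in the same order, and relative to U6 without its outlying blank well, chosen after seeing the data, 19.55, 6.19, 6.85 and 6.34. Each of these shifts follows from the reference subtracted, which is the same for all assays of a card. When centred on the card median, the 4 values were 13.99, 0.63, 1.29 and 0.77. With a Ct below 20 taken as not detected, miR-29b# was detected in 0 wells of blank media, and so in conditioned media only, 1 of the 7 minor-arm and rat-named assays. For the 7 members, the limit of 32 left 6 detected in conditioned media and 2 in conditioned media only, since miR-101b was lost, and leaving out a Ct below 20 gave 3 in blank media and 4 in conditioned media only. Limits of 38 and any determined Ct, or leaving out a Ct below 15, gave 7, 4 and 3 as before. For the list of other chromatin-related assays, 11 to 16 were detected in conditioned media, 5 to 7 in blank media and 6 to 9 in conditioned media only over these settings. No paired analysis was possible because each medium had 1 sample. With 1 well per assay, wells near a Ct of 35 and gaps below the spread of U6 cannot be resolved.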
